A study of Mus musculus with 6 samples.

Results

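The endothelin system, the set of endothelin peptides, their receptors and the enzymes that release the peptides, was examined in hepatic tissue of ARSB-null and control mice. The set held 7 genes, taken by symbol: the ligands Edn1, Edn2 and Edn3, the converting enzymes Ece1 and Ece2, and the receptors Ednra and Ednrb. Of these, 6 had a probe set that the array annotation ties to exactly 1 symbol, out of 19938 genes with such a probe set, and Ednra was not analysed here. Where a gene had several probe sets, the brightest by its mean across the 6 arrays was used. The set was selected on the measured difference of Ednrb between the groups compared here, so the differences of its members are given as a description with no test.

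Both groups were untreated male mice of 12 weeks on the C57BL/6J background. The 3 ARSB-null mice were homozygous for loss of arylsulfatase B, the enzyme that takes the 4-sulfate group off chondroitin 4-sulfate and dermatan sulfate, and came from a colony of such mice. The 3 controls were C57BL/6J mice kept in a similar way and are not stated to be littermates, so that genotype and colony cannot be told apart. Whole liver was used, with 1 array per mouse, and the mice of each group are numbered 4, 5 and 6. In whole liver, fewer cells of a type and less RNA per cell cannot be told apart.

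Endothelins are short peptides with a pair of disulfide bridges that constrict blood vessels. They are made as preproproteins, trimmed by furin-type proteases to an inactive big endothelin, and cut to the active form by the membrane metalloproteases ECE1 and ECE2. The A receptor, on smooth muscle and hepatic stellate cells, signals through Gq and G12/13 to calcium release and contraction. The B receptor, on endothelial and stellate cells, couples to nitric oxide release and also removes endothelin-1 from the circulation.

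The genotype was checked on Arsb itself. Its brighter probe set gave log2 signals of 7.63, 7.46 and 7.64 in ARSB-null mice and of 10.21, 10.23 and 10.21 in controls. This difference of -2.64 (SE 0.10) was past the threshold (adjusted p = 0.000639 from limma). The first principal component, 39.7% of the variance over named probe sets, set both arrays numbered 4 apart from the other 4 arrays, and the second, 27.1%, set the genotypes apart.

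Ednrb encodes the B receptor, the member on which the description turns. Below is the stretch of 250 bases upstream of the start site that the RefSeq promoter table gives for it, which lies inside the span RefSeq gives the whole gene and so is not its outermost start; it is shown because Ednrb is the receptor whose signal differed, beside 1 of the 4 such stretches of Ece1, shown because it holds the only match among the members to an E-box of the type that MITF, a transcription factor the study examined, can bind. Both are from RefSeq on GRCm38.p6, read 5′ to 3′ on the strand of the gene. Ednrb lies on the minus strand (chr14:103843702-103843951) and the Ece1 stretch on the plus strand (chr4:137913308-137913557). Capitals mark motif matches.
Ednrb: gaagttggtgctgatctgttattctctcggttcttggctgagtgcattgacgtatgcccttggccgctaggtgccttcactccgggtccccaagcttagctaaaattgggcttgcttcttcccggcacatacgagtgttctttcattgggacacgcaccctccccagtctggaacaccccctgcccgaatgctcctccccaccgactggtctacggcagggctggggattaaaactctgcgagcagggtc
Ece1: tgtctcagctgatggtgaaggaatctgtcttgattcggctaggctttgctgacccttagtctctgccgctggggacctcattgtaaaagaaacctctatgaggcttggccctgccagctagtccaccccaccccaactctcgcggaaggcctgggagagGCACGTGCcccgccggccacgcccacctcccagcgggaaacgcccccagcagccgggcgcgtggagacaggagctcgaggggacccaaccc

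In the Ednrb stretch, 56.8% of bases were G or C, with 11 CpG dinucleotides. It held none of the 5 motifs searched on both strands: the AP-1 site TGANTCA, the E-boxes CACGTG and CATGTG, the Sp1 box GGGCGG, the GATA boxes AGATAA and TGATAA, and the hypoxia response cores ACGTGC and GCGTGC. Over 32851 RefSeq stretches of the same length, 6.7% held the AP-1 site, 17.6% an E-box, 32.7% the Sp1 box, 16.6% a GATA box and 13.6% a hypoxia response core. No match says only that these letters were not in this window. The shorter MITF site that the paper gives for the GPNMB promoter, CAGGT, was not among the motifs searched. The stretches of Edn1, Edn2, Edn3 and Ednra also held none of the 5 motifs. Each of the 4 stretches of Ece1 held at least 1 match, and in the one printed the E-box CACGTG, at -90 to -85 from the start site, overlapped hypoxia response cores on both strands. The Ece2 stretch held 1 Sp1 box.

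The log2 signal of Ednrb for mice 4, 5 and 6 was 9.05, 9.05 and 9.43 with the null genotype and 7.91, 8.24 and 8.12 in control liver. The lowest ARSB-null value lay above the highest control value, and the gap between the groups was 0.81. The ARSB-null mean was 9.17 ± 0.22 (SD, n = 3), and that of the controls 8.09 ± 0.17 (SD, n = 3). The difference of the log2 means was 1.09 (SE 0.15, 95% interval 0.74 to 1.44), a 2.13-fold higher signal with an interval of 1.67 to 2.71. Of 21789 probe sets with 1 symbol, 16 had a larger difference upward and 41 a larger difference in either direction. Between mice of the same number the difference was 1.15, 0.81 and 1.31 for numbers 4, 5 and 6. Ednrb was the only member whose groups did not overlap; over all probe sets, 5.14% had ARSB-null values that all lay above the controls. It was also the only member higher in all 3 numbered pairs, as were 15.5% of all probe sets.

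**Figure D1:**
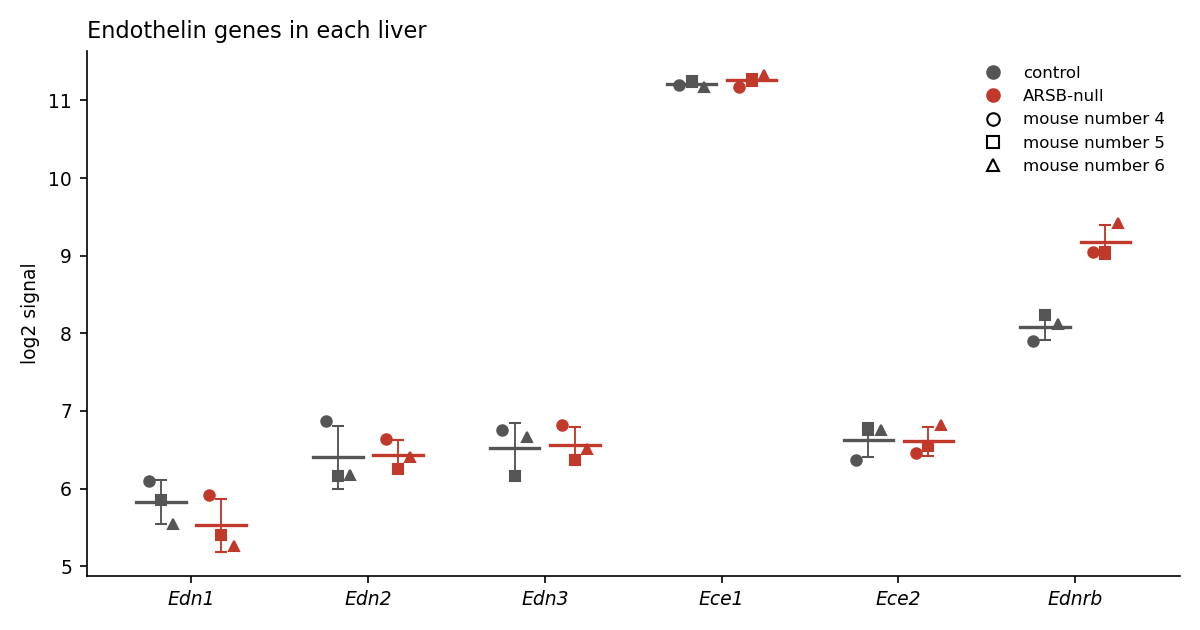
Log2 signal (vertical axis) of the 6 endothelin genes analysed, in each control (grey) and ARSB-null (red) liver, with a marker shape for each mouse number; the long bar marks each mean, with its SD as error bar (n = 3). Ednrb lies between 9.05 and 9.43 in ARSB-null liver and between 7.91 and 8.24 in control liver, and the groups of the other 5 genes overlap.

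None of the 6 members was called by limma at an adjusted p under 0.05, a threshold that 0.0197% of all 35556 probe sets passed. At an unadjusted p under 0.05 limma counted 1 member, Ednrb, against 5.94% of all probe sets, and the analysis of variance named in the study's methods counted the same 1, against 6.56%, with 0 members called after adjustment. When probe sets with 1 symbol alone were fitted, 1 member, Ednrb, was called, against 0.275% of the probe sets in that fit. Since this contrast chose the set, nothing is read from these counts.

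For each ligand, the values of the groups overlapped and the 95% interval of the difference included 0. Edn1 encodes endothelin-1, the main vascular endothelin, secreted by endothelial cells. Its log2 signal for mice 4, 5 and 6 was 5.91, 5.40 and 5.27 with the null genotype and 6.09, 5.85 and 5.54 in control liver. The groups overlapped, but each ARSB-null value was below that of the control of the same number, by 0.18, 0.45 and 0.27. The difference of the means was -0.30 (SE 0.21, 95% interval -0.80 to 0.20), and with the mouse number as a block the interval was -0.56 to -0.04. Without the ARSB-null mouse numbered 4 the difference was -0.49 (95% interval -0.94 to -0.04). Edn1 was called in neither of these fits, and the labels do not say what the mouse numbers share. The difference was -0.17 without the control numbered 4 (95% interval -0.71 to 0.37) and -0.17 without the ARSB-null mouse numbered 6 (95% interval -0.73 to 0.39). Edn1 was the only member lower in all 3 numbered pairs, a pattern that 16.7% of all probe sets shared.

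Edn2 encodes endothelin-2, which binds both receptors. Its log2 signal for mice 4, 5 and 6 was 6.64, 6.26 and 6.41 with the null genotype and 6.87, 6.16 and 6.18 in control liver. The control numbered 4 held the highest of these values, and the groups overlapped. The difference was 0.03 (SE 0.22, 95% interval -0.48 to 0.55). Edn3 encodes endothelin-3, which prefers the B receptor and is needed with it for the migration of neural crest cells. Its log2 signal for mice 4, 5 and 6 was 6.81, 6.37 and 6.51 with the null genotype and 6.76, 6.16 and 6.67 in control liver, again with overlap. The difference was 0.04 (SE 0.19, 95% interval -0.42 to 0.49).

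The ligand probe sets shared a pattern across mouse numbers. Edn1, Edn2 and Edn3 each had their highest value on the array numbered 4 in both groups, as did the dimmer probe set of Ece2. Over all probe sets this held for 24.1%, and for 32.4% of those below the median signal. Edn1 and Edn2 lay below that median, with 32.7% and 47.8% of probe sets dimmer, and Edn3 close to it (50.2%). There are no detection calls, so whether these signals stand above background is not known, and signals of different probe sets do not rank the amounts of their transcripts.

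The converting enzymes also overlapped between the groups. Ece1 encodes the broadly expressed ECE1. Its log2 signal for mice 4, 5 and 6 was 11.18, 11.27 and 11.33 with the null genotype and 11.20, 11.25 and 11.18 in control liver. Its spread was the smallest of the members (SD 0.08 and 0.04, n = 3 each), and the difference was 0.05 (SE 0.09, 95% interval -0.17 to 0.27). The interval leaves room for a signal up to 1.21-fold higher or down to 0.887 of the control level.

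Ece2, a related enzyme with an acidic optimum found mainly in nervous tissue, was the only member with 2 probe sets. The brighter of them read 6.45, 6.55 and 6.82 (log2 signal) in ARSB-null mice and 6.37, 6.75 and 6.75 in controls, a difference of -0.02 (SE 0.15, 95% interval -0.38 to 0.35). The dimmer one read 6.14, 5.86 and 5.77 against 6.13, 5.73 and 6.11, a difference of -0.07 (SE 0.16, 95% interval -0.44 to 0.30). The groups overlapped on both. The brighter probe set may not read Ece2 alone: of its 3 RefSeq transcripts, none belongs to Ece2 in the RefSeq table and all 3 to Eef1akmt4, a methyltransferase gene next to it, or to the readthrough of both genes. Of the 4 matched transcripts of the dimmer probe set, 2 belong to Ece2.

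**Figure D2:**
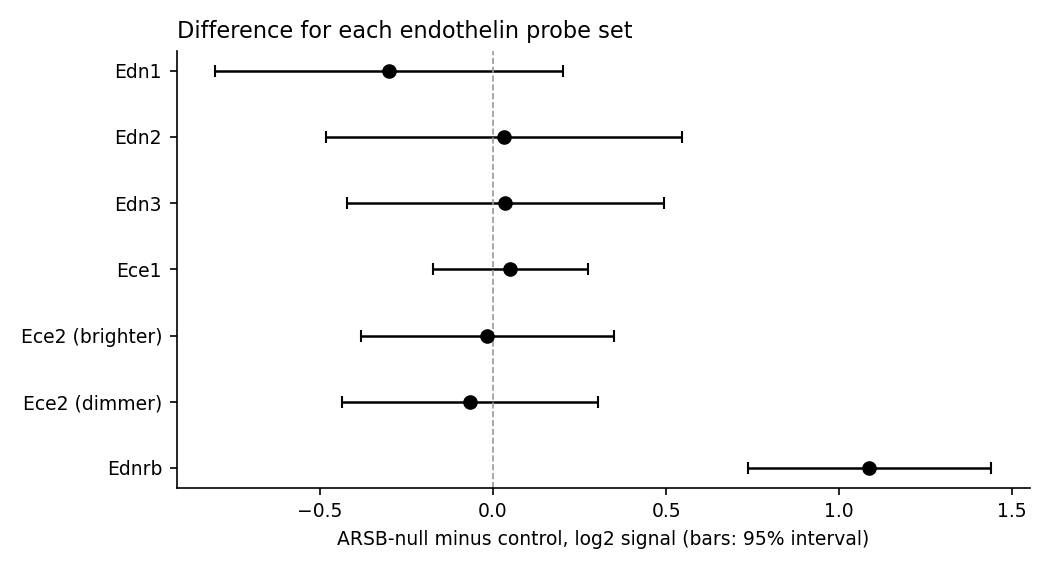
ARSB-null minus control difference of mean log2 signal (horizontal axis) for each endothelin probe set (vertical axis), with the 95% interval of the limma fit; the dashed line marks no difference. The interval of Ednrb runs from 0.74 to 1.44, and those of the other 6 probe sets include 0.

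The nearest profiles to Ednrb were found by the root mean squared distance between log2 values centred on each gene's own mean over the 6 arrays. Of 18290 genes compared, the 5 nearest were Lrtm1 (distance 0.14), Gpr137b (0.16), Sytl5 (0.17), Gpr137b-ps (0.17) and Lilr4b (0.18), while the median gene lay at 0.60. Their log2 differences were 1.07, 1.18, 1.21, 1.32 and 1.03. Lrtm1 had log2 signals of 9.07, 9.27 and 9.19 in ARSB-null and 7.97, 8.30 and 8.07 in control liver, with no overlap. Gpr137b and Gpr137b-ps, a gene and its pseudogene, can share signal between their probe sets. These genes were picked for likeness to Ednrb, which had a group difference, so their differences are a description.

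**Figure D3:**
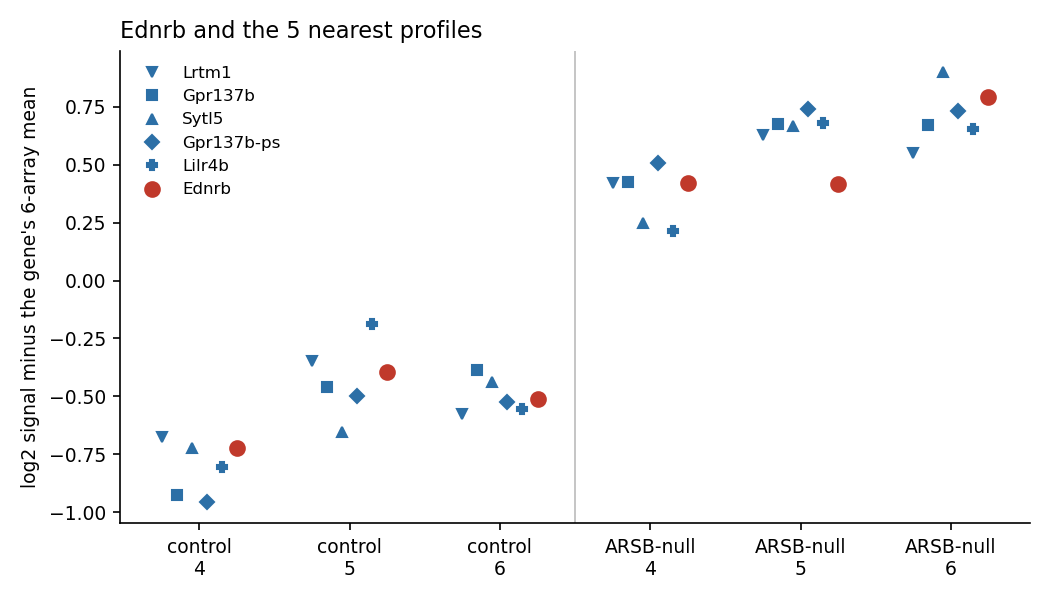
Log2 signal minus each gene's mean over the 6 arrays (vertical axis) for Ednrb (red) and the 5 genes with the nearest profile (blue) in each liver (horizontal axis). All 6 genes lie below 0 in the 3 control livers and above 0 in the 3 ARSB-null livers.

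Other genes of the pathway were taken from 5 lists with 93 measured genes. None was called by limma at an adjusted p under 0.05. At an unadjusted p under 0.05, 5 were higher and 3 lower, together 8.60% of them. The share was 5.80% for the brightest probe set of every gene, the choice used for the lists, and 5.94% for all probe sets. The median difference of these 93 genes was 0.00, as was that of all probe sets, and it was -0.02 for the brightest probe set of every gene.

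Of 25 measured G proteins and effectors, which carry the signal of both receptors, the differences ran from -0.41 to 0.20 with a median of -0.03. The mean log2 signal over this list was 8.79 to 8.92 in ARSB-null and 8.84 to 8.94 in control liver, with overlap. The smallest p was that of Gnai1, an inhibitory G protein subunit, with -0.41 (SE 0.16, adjusted p = 0.810 from limma). Plcb4, a phospholipase C activated by Gq, and Itpr3, a calcium release channel, were at 0.20 each. The nitric oxide arm, through which the B receptor on endothelium relaxes vessels, held 10 measured genes with a median of -0.03. The ARSB-null mean was higher for 5 of them and lower for 5, with differences from -0.60, that of Cav1, to 0.12. Its list mean, on which Cav1 weighs, was 7.77 to 7.88 in ARSB-null and 7.89 to 7.96 in control liver, without overlap. This is not read as a shift of the whole list. Cav1, the caveolin that holds endothelial nitric oxide synthase inactive, had log2 signals of 7.29, 6.86 and 6.51 in ARSB-null and 7.45, 7.58 and 7.42 in control liver. These values did not overlap, yet the difference of -0.60 (SE 0.20) was not past the threshold (adjusted p = 0.731 from limma). Nos3, the synthase itself, named here after its value was seen, was at 0.12 with overlap.

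Of 13 measured genes of receptor desensitization and sorting, Rgs16, which speeds the switching off of Gq and Gi, had the largest difference, 1.49 (SE 0.65, adjusted p = 0.843 from limma). Its log2 signal for mice 4, 5 and 6 was 11.81, 9.15 and 11.48 with the null genotype and 9.25, 9.50 and 9.23 in control liver. The value was thus high in 2 ARSB-null livers, while the ARSB-null liver numbered 5 lay below all controls. Arrb1, a beta-arrestin, was at 0.24 without overlap (adjusted p = 0.802 from limma). The ARSB-null mean was higher for 5 genes of this list and lower for 8, with a median difference of -0.03. The list mean, on which Rgs16 weighs, was 8.33 to 8.42 in ARSB-null and 8.19 to 8.28 in control liver, without overlap. This is not read as a shift of the whole list.

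Of 20 measured genes of endothelin production and breakdown, the smallest p was that of Klf4, an endothelial transcription factor, with 7.37, 7.33 and 7.13 in ARSB-null and 6.72, 6.70 and 6.89 in control liver. Its difference of 0.51 (SE 0.11) was not past the threshold (adjusted p = 0.448 from limma). Jun, a subunit of AP-1, was at 0.57 with overlap, and Hif1a, the hypoxia-inducible factor, at -0.25 without. The ARSB-null mean was higher for 11 genes of this list and lower for 9, with a median difference of 0.04. The list mean was 7.84 to 7.85 in ARSB-null and 7.75 to 7.83 in control liver, the lowest ARSB-null value just above the highest control value. Of 25 measured genes of other vasoactive systems, Npr1, the receptor of atrial natriuretic peptide, was at 0.37, and Agtr1a, the main angiotensin II receptor of liver, at 0.33, both without overlap (adjusted p = 0.694 and 0.763 from limma). Over the list of other vasoactive systems the mean was 7.56 to 7.62 in ARSB-null and 7.50 to 7.70 in control liver, with overlap. Ednrb lay outside the range of these 5 lists except for Rgs16.

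Markers of the cells that may carry the receptors, and of other cell types, were read from the same arrays. Of 163 measured marker genes, 21 were higher and 17 lower at an unadjusted p under 0.05 from limma, together 23.3%. The share was 5.80% for the brightest probe set of every gene. The lists were chosen with earlier results of these data known, so nothing is read from that share. Of 16 markers of liver sinusoidal endothelium, none was called, and the median difference was 0.09. Adgrl4 (0.52), Stab1 (0.49) and Ehd3 (0.29) had higher means without overlap, and Lyve1 (-0.31) lower. The mean log2 signal over this list was 9.40 to 9.51 in the ARSB-null livers and 9.33 to 9.44 in the controls. For 14 measured markers of large vessels the median was 0.07, with list means of 7.62 to 7.70 against 7.52 to 7.60, without overlap. For 10 markers of endothelium in general it was 0.10, with Egfl7 at 0.33 and list means of 8.60 to 8.75 against 8.50 to 8.60, the lowest ARSB-null value just above the highest control value. None of these markers was called, and each had a smaller difference than Ednrb.

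Of 15 measured markers of hepatic stellate cells, the ARSB-null mean was higher for 14 and lower for 1. The median was 0.08, none was called, and the largest difference was that of Ecm1, an extracellular matrix protein, with 0.52 (adjusted p = 0.535 from limma). The list mean was 8.74 to 8.89 in ARSB-null and 8.67 to 8.72 in control liver, without overlap. Other lists also held more genes with a higher mean. The counts were 10 of 16 for sinusoidal, 11 of 14 for large-vessel and 8 of 10 for general endothelium, and 9 of 11 for hepatocytes. For 10 measured genes of myofibroblasts and fibrosis the median was 0.05, with list means of 7.91 to 7.94 against 7.79 to 7.94, and for 10 genes of vascular smooth muscle it was 0.08, with list means of 6.86 to 7.05 against 6.84 to 7.01. The part of any of these cells in the Ednrb signal was not tested.

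Among the other cell types, 1 marker was called: Gpnmb, a glycoprotein of lipid-laden macrophages and the gene the study followed, 3.25 higher on the log2 scale (limma, adjusted p = 0.000639). Since the study picked Gpnmb on these samples, the list is also given without it. Of the other 13 genes of lipid-laden macrophages, 8 were higher at an unadjusted p under 0.05 and 0 lower, and 0 were called. Over all probe sets, 2.75% were higher at that p from limma. For 7 of the 13 genes all ARSB-null values lay above the controls, as for 5.14% of all probe sets. The ARSB-null mean was lower for 3 of the 13 genes. The list mean of these 13 genes was 8.22 to 8.26 in ARSB-null and 7.66 to 7.79 in control liver, without overlap. Ms4a7 (1.39), Mmp12 (0.96) and Lgals3 (0.67) had the next smallest p. When probe sets with 1 symbol alone were fitted, Ms4a7 and Mmp12 were called (adjusted p = 0.00395 and 0.00799 from limma). Of 15 measured markers of Kupffer cells and macrophages, the ARSB-null mean was higher for 4 and lower for 11, with a median of -0.13 and list means of 9.19 to 9.29 against 9.16 to 9.46. At an unadjusted p under 0.05 from limma, 2 of these markers were higher and 4 lower, against 2.75% and 3.19% of all probe sets. The groups did not overlap for 3 higher and 2 lower markers, against 5.14% and 6.78% of all probe sets. Folr2 (-0.75) and Cd163 (-0.77) were lower and Cd68 (0.53) and C1qa (0.39) higher, each without overlap and none called. The part of these macrophages in the Ednrb signal was not tested.

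Of 9 measured markers of neural crest, Schwann cells and melanocytes, lineages in which Edn3 and Ednrb act together during development, none was called. The median was 0.00 and the list means were 6.37 to 6.45 against 6.37 to 6.53. Erbb3, also a hepatocyte gene, was at 0.33 and Dct, a melanocyte enzyme, at -0.37. For hepatocytes the median over 11 measured genes was 0.07, with list means of 13.32 to 13.41 against 13.25 to 13.34, and for cholangiocytes it was 0.02 over 7, with list means of 6.26 to 6.42 against 6.30 to 6.47.

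Blood cell markers were read last. All 4 measured erythroid genes had a lower mean, with Slc4a1 at -1.56 and Alas2 at -0.81, none called. Their list means were 7.30 to 7.47 against 8.11 to 8.48, without overlap. Of 11 markers of neutrophils and monocytes, 10 had a lower mean, none was called, and list means were 5.47 to 5.52 against 5.65 to 5.81, without overlap. For T and NK cells the median was -0.05 over 10 genes, with list means of 5.90 to 5.96 against 5.77 to 6.10. For B and plasma cells it was 0.02 over 9, with list means of 6.77 to 6.83 against 6.72 to 6.95. Cd72 was at -1.12 and Jchain at 1.30, neither called (adjusted p = 0.0553 and 0.099 from limma). Both were called when probe sets with 1 symbol alone were fitted (adjusted p = 0.00332 and 0.00669 from limma). Over all 254 genes of the lists, 7 had a larger difference than Ednrb in either direction: Gpnmb, Ms4a7, Atp6v0d2, Rgs16 and Jchain upward, and Cd72 and Slc4a1 downward. Atp6v0d2, a subunit of the proton pump of lysosomes, is named here after its value was seen.

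**Figure D4:**
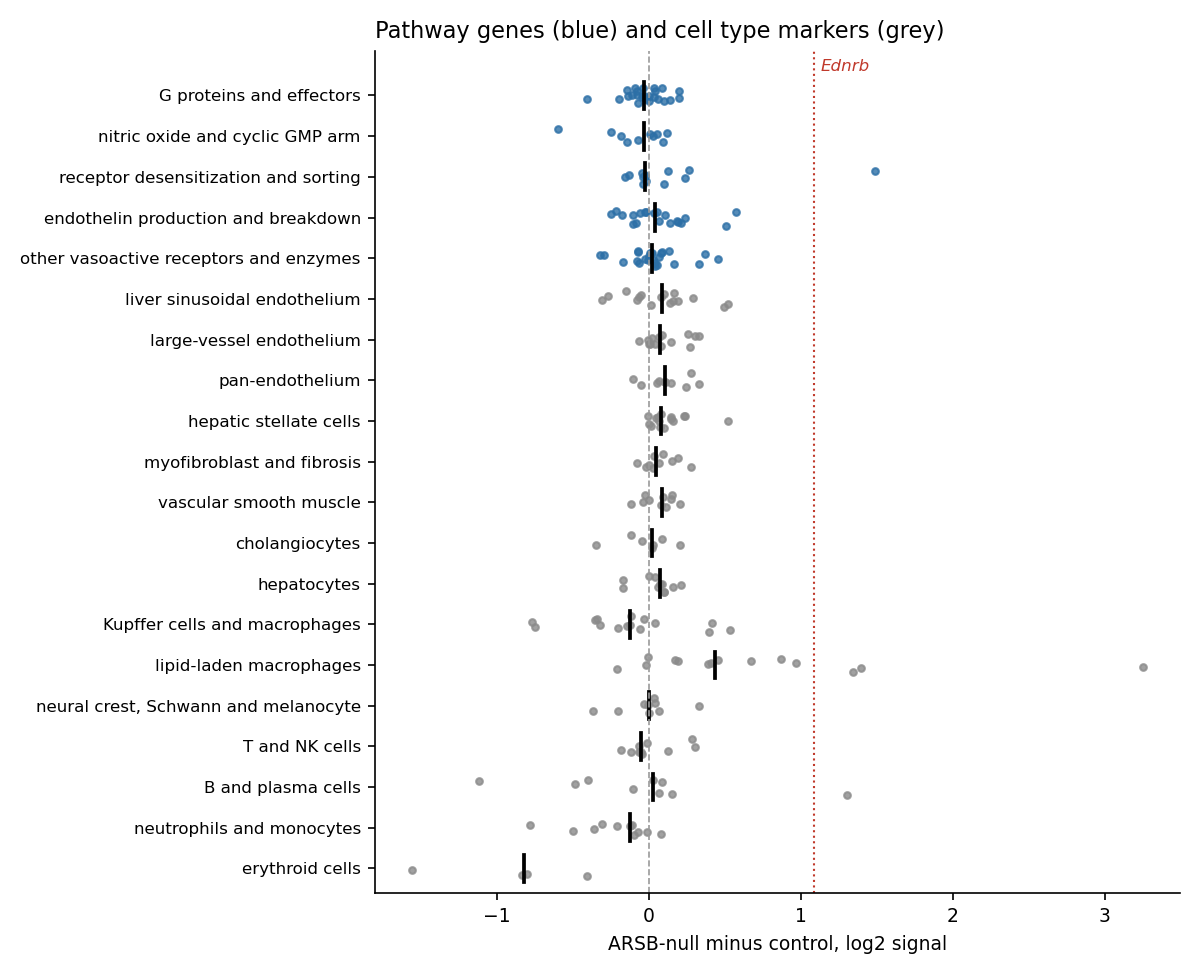
ARSB-null minus control difference of mean log2 signal (horizontal axis) for each measured gene of the pathway lists (blue) and marker lists (grey), with the median of each list as a black bar and the value of Ednrb (1.09) as a dotted red line. Of 254 genes, 5 lie to the right of that line, among them Rgs16 and Gpnmb.

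Under the alternatives the Ednrb difference ran from 0.96 to 1.16; its direction was fixed by the choice of the set. It was 0.96 without the ARSB-null mouse numbered 6, its lowest, and 1.16 without the control numbered 5, its highest. Without both arrays numbered 4, which stood apart on the first principal component, it was 1.06 (95% interval 0.64 to 1.48). The differences of Edn2, Edn3 and Ece2 were smaller than their standard errors and changed sign in some settings.

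**Figure D5:**
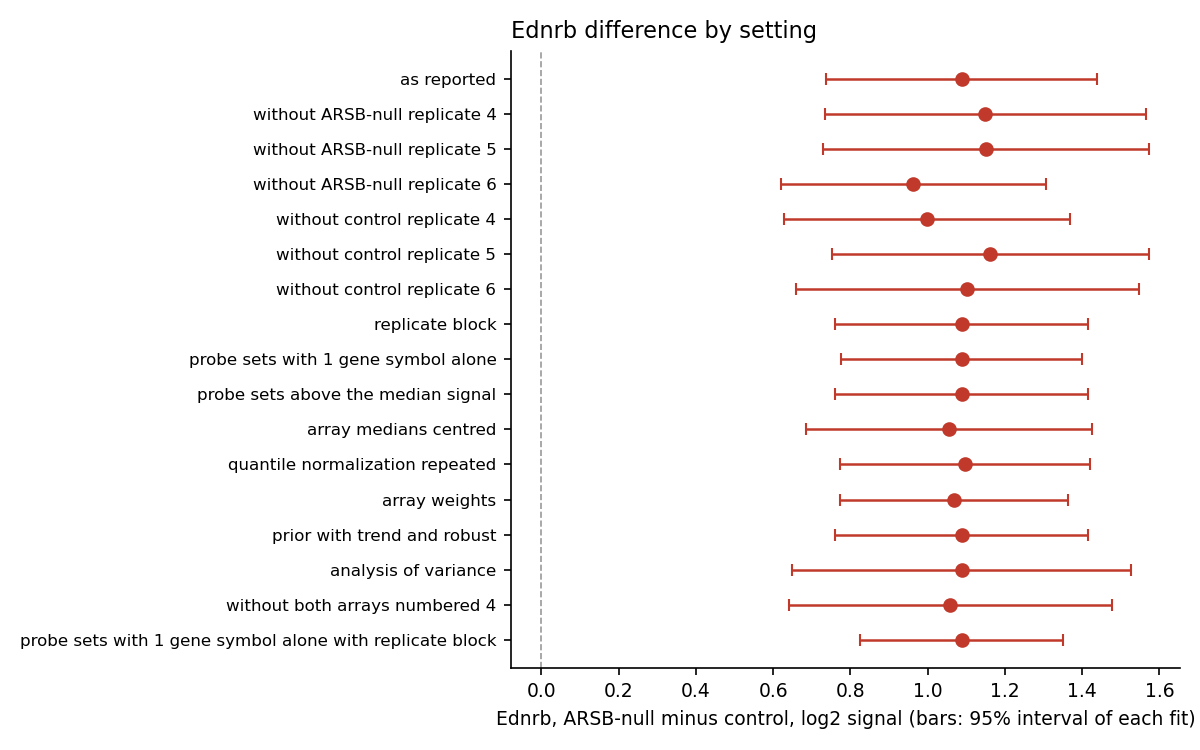
ARSB-null minus control difference of log2 signal of Ednrb (horizontal axis), with the 95% interval of each fit, as reported and under each alternative (vertical axis); the dashed line marks no difference. The difference lies between 0.96 and 1.16, a description of a value that the choice of the set used.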

How the data were processed

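Hepatic RNA from 3 ARSB-null and 3 control mice was measured on 1 array each. Per the labels the RNA carried biotin and was hybridized to mouse gene arrays. Signals were quantile-normalized and summarized by the authors, for which their processing notes list RMA and Partek with no version. What was deposited is a log2 signal for each probe set on each array. Quantile normalization hides a change shared by most genes. No scanner files were used here, and the genome build is not given in the sources used here. The study's methods name a second-generation gene array; GEO's annotation gives these row identifiers to the first generation. Of 35556 probe sets, 21789 had 1 symbol, 1621 several, and 12146 were not listed; 0 symbols changed through RefSeq (GRCm38.p6). No columns were left over.

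All 35556 probe sets were fitted in limma (version 3.58.1, R 4.3.3) with lmFit and eBayes, two-sided, and p-values were adjusted by Benjamini-Hochberg (threshold 0.05); intervals are 95% intervals of that fit, and the code was tested on simulated data. The analysis of variance in the methods was an alternative. Members, 20 gene lists (258 of 293 entries measured), tests and alternatives were chosen with earlier results of these data known. Named were all members, Arsb, list genes past the threshold, up to 4 genes with the smallest p of each list, and the 5 profiles nearest to Ednrb; others are marked. The labels describe separate animals but do not say what their numbers share. Deviations from the group means correlated at 0.396, 0.159 and 0.193 between mice numbered 4, 5 and 6, all above 0.1, and at 0.22 between ARSB-null 6 and control 5, above the values for numbers 5 and 6. The number was used as a block in an alternative fit.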

Additional observations from a re-analysis of the deposited data

How the results depend on the processing

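The Ednrb difference, whose direction the choice of the set fixed, ran from 0.96 to 1.16 over 16 alternatives. The sign was kept throughout for Edn1 (15 alternatives, -0.49 to -0.17) and Ece1 (16, 0.02 to 0.09); Edn2, Edn3 and Ece2 kept it in 10 of 15, 12 of 16 and 13 of 17. Leaving out each array in turn gave 0.96 to 1.16 for Ednrb, -0.49 to -0.17 for Edn1, -0.09 to 0.27 for Edn2, -0.15 to 0.15 for Edn3, 0.02 to 0.09 for Ece1 and -0.14 to 0.06 for Ece2. Members called stayed at 0 apart from 1, Ednrb, when probe sets with 1 gene symbol alone were fitted, and 1 in that fit with the replicate block, which was chosen after seeing the data, as was leaving out both arrays numbered 4. No gene of the pathway lists was called in any setting.

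The counts over all probe sets, 2 higher and 5 lower, moved more: 1 higher and 3 to 6 lower without each array in turn, 1 and 3 with the replicate block, 27 and 33 with 1 gene symbol alone (43 and 63 with the block as well), 5 higher above the median signal, 1 higher with array medians centred, 14 and 14 with array weights, 1 and 1 with the analysis of variance, 1 and 0 without both arrays numbered 4, and 978 and 1134 at an unadjusted p under 0.05. Marker genes called, 1 higher and 0 lower, became 4 and 3 with 1 gene symbol alone (5 and 5 with the block as well), 4 and 1 with array weights, 0 higher with the analysis of variance, and 1 lower each above the median signal, with repeated quantile normalization and with the trended prior. With 1 gene symbol alone these were Gpnmb, Ms4a7, Mmp12 and Jchain higher and Cd72, Slc4a1 and Alas2 lower. The block added Lgals3 higher and Cd163 and Folr2 lower. With array weights Gpnmb, Ms4a7, Mmp12 and Jchain were called higher. Wherever 1 marker was called lower, it was Cd72. The replicate block on mouse number changed no member's call. The cause of these changes was not tested. Without detection calls, signal over background is not known.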
